A study of Mus musculus with 4 samples.

Results

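The 8 genes described here encode the chains of complement component C1q (C1qa, C1qb and C1qc), the central complement protein C3, the receptors for the complement fragments C3a and C5a (C3ar1 and C5ar1), properdin (Cfp) and a C1q-binding protein (C1qbp). Their readings come from sorted mouse Langerhans cells, which are epidermal cells that present antigen, with and without TCDD. The pathway was chosen by the readings of C1qa, which were higher on both TCDD arrays than on both control arrays. Its TCDD difference is therefore a description, and no test of it is given. Every probe set that the platform annotation assigns to exactly 1 of these symbols was used. That gave 11 probe sets for 7 of the 8 genes, out of 20380 probe sets for 12393 genes with a single symbol. C1qb had 3 probe sets, C3ar1 and C1qbp had 2 each and the other 4 genes had 1. For C3 the annotation held 0 probe sets, so no value of C3 is given.

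The study comprised 4 one-colour Affymetrix arrays, 1 per sample, with 2 controls and 2 TCDD samples. TCDD (2,3,7,8-tetrachlorodibenzo-p-dioxin) activates the aryl hydrocarbon receptor (AhR), a ligand-dependent transcription factor. Mice of the TCDD group received 10 µg of it in 100 µl of an oil vehicle, which contained DMSO for TCDD 2, and control 1 received 100 µl of DMSO in olive oil. The series describes the route as intraperitoneal, the interval to cell isolation as 24 h and the sorting purity as 95%. Control 2 and TCDD 2 came from back skin, and no skin site is named for control 1 and TCDD 1. The 2 controls also carry different experiment dates, so skin site cannot be told apart from experiment, and the word preparation stands for both. Strain, age, number of animals and any pooling are not given in the sources used. Control 2 is a control by its title and description, but the treatment field of the same sample mentions TCDD. It was kept as a control, and the TCDD differences of the 11 probe sets are also given without it.

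RNA quality was not equal on the arrays. Actin control probe sets had 49.7 times more signal at the 3′ than at the 5′ end on control 1 and those of Gapdh 107 times, against 3.48 to 7.71 and 9.55 to 15.9 on the other 3 arrays. Control 1 therefore stood apart, and TCDD differences of the 11 probe sets without it are given beside the results. Medians of the signal lay between 164.9 and 188.1. Epcam and Csf1r, which Langerhans cells express, read 7541 or more and 8469 or more on every array. They were among the brightest of 10 markers listed for these cells. H2-Aa read between 5847 and 11487, Cd74 between 3406 and 6750, H2-Eb1 between 1404 and 7042 and H2-Ab1 between 975.7 and 1523. Lower were Tgfbr1 (521.5 to 736.2), E-cadherin (Cdh1, 137.8 to 206.6) and Mpeg1 (45.2 to 165.9). Langerin (Cd207), a lectin that these cells express, had 2120 in the control and 5343 after TCDD with no site named, but 7211 in the control and 2155 after TCDD in back skin.

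C1q is assembled from its A, B and C chains, each with a collagen-like stalk and a globular head. It binds antibody complexes, microbes and dying cells and starts the classical pathway of complement, which leads to cleavage of C3 and C5. The small fragments C3a and C5a signal through their receptors on myeloid cells, properdin stabilises the C3-cleaving enzyme of the alternative pathway, and C1qbp binds the globular heads of C1q but resides mostly in mitochondria. Macrophages are a known source of C1q in skin and other tissues.

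The 3 C1q chain genes lie side by side on mouse chromosome 4, with 0 other genes listed between them in RefSeq (GRCm38.p6). RefSeq promoter windows, from 250 bases before to 50 bases after the start of a gene, were matched for 7 of the 8 genes and not for C1qa. The windows of C1qb and C1qc are shown because these neighbouring genes encode parts of 1 protein and their probe sets read in different directions. That of Cfp is shown because it was the only member window with the core of the AhR binding site, GCGTG, searched on both strands. The windows were chr4:136886151-136886450 for C1qb, chr4:136892865-136893164 for C1qc and chrX:20931506-20931805 for Cfp, all on the minus strand of GRCm38.p6. Capitals mark GCGTG in Cfp and, in the C1q windows, GGAAGT, a sequence bound by ETS-family factors such as PU.1 of myeloid cells, each on either strand.
C1qb: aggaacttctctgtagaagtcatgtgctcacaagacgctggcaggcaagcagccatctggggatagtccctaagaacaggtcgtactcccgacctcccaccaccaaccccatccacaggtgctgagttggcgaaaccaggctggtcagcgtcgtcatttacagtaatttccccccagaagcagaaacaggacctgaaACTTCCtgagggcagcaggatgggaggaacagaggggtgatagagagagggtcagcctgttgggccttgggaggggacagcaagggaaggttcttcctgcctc
C1qc: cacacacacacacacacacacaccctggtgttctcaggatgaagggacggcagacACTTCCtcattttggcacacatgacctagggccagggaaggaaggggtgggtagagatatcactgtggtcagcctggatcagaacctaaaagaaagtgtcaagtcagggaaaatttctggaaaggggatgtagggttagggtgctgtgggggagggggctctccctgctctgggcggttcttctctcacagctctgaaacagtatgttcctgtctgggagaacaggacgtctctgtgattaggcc
Cfp: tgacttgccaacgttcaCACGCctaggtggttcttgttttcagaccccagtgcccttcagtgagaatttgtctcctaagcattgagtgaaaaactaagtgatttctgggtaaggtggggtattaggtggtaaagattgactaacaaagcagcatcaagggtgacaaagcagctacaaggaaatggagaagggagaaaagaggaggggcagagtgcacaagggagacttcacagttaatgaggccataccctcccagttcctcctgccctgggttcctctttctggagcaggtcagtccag
GCGTG was present in 1 of 7 member windows and in 32.4% of the 32851 promoter windows in the table. GGAAGT, chosen after the promoter sequences had been seen, was present in 3 of 7 (C1qb, C1qc and C5ar1) and in 23.8% of all windows. The 2 motifs share no bases in these windows, and a match describes the letters only.

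The probe sets of the C1q chains differed in direction. C1qa read higher on both TCDD arrays, C1qc read lower on both, and for C1qb the pattern of 1417063_at differed from that of the other 2 probe sets, which were alike. All values are MAS5 signals on the linear scale unless called log2. A reading sums over all cells of a sample, so fewer cells of a type and less RNA per cell cannot be told apart.

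C1qa, the A chain, had a signal of 25.2 in the control and 260.9 after TCDD with no site named, and of 126 in the control and 284.3 after TCDD in back skin (1417381_at). The groups did not overlap: the TCDD arrays lay close together, and the spread was in the controls, whose log2 SD was 1.64 against 0.09 in the TCDD samples. The ratio of TCDD to control was 2.26-fold in back skin and 10.4-fold with no site named, a log2 difference of 2.27 ± 0.59 (SE, n = 2 per group). The reading on control 1 lay at percentile 15.3 of that array's probe sets and on control 2 at percentile 39.0, against 59.9 and 63.5 on the TCDD arrays. A value that low is not exact, and with signals under 32 set to 32 the log2 difference was 2.10. Without control 1 the log2 difference was 1.11, and without control 2 it was 3.43. Whether the RNA quality of control 1 bears on its low reading was not tested.

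C1qb, the B chain, had a signal of 34.8 in the control and 166 after TCDD with no site named, and of 69 in the control and 21.5 after TCDD in back skin, by probe set 1417063_at. TCDD 1 was the highest of the 4 and TCDD 2 the lowest, so the groups overlapped, and the log2 ratios were -1.68 in back skin and 2.25 with no site named. The other 2 probe sets of C1qb carry the suffix x_at, which Affymetrix gives to sets of which some probes also match other sequences, and the annotation used lists no accession for them. Probe set 1434366_x_at had 324.9 in the control and 342 after TCDD with no site named and 344.7 and 584.2 in back skin. For 1437726_x_at the corresponding signals were 175 and 201.1, then 176.2 and 345.8. Both were highest on TCDD 2, the array on which 1417063_at was lowest, and nearly level on the other 3 arrays. Their log2 differences were 0.42 ± 0.35 and 0.59 ± 0.39 (SE, n = 2 per group). Without TCDD 2 these were 0.03 and 0.20, and without TCDD 1 they were 0.80 and 0.98. They were 0.37 and 0.58 without control 1, and 0.46 and 0.59 without control 2. That of 1417063_at was 0.29 ± 1.02 over all arrays (SE of the fit with no filter, n = 2 per group), 1.76 without TCDD 2, -0.21 without control 1, 0.78 without control 2 and -1.19 without TCDD 1.

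C1qc, the C chain, had a signal of 83.1 in the control and 35.3 after TCDD with no site named, and of 92.3 in the control and 25.9 after TCDD in back skin (1449401_at). Both TCDD arrays lay below both controls. The log2 difference was -1.53 ± 0.64 (SE of the fit with no filter, n = 2 per group), with ratios of -1.83 in back skin and -1.24 with no site named, and it lay between -1.76 and -1.31 with any 1 array left out, including control 1 (-1.61) and control 2 (-1.46). The signals ranged from percentile 15.1 to 32.8 of their arrays. With 32 added to every signal before log2 the difference was -0.94.

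**Figure D1:**
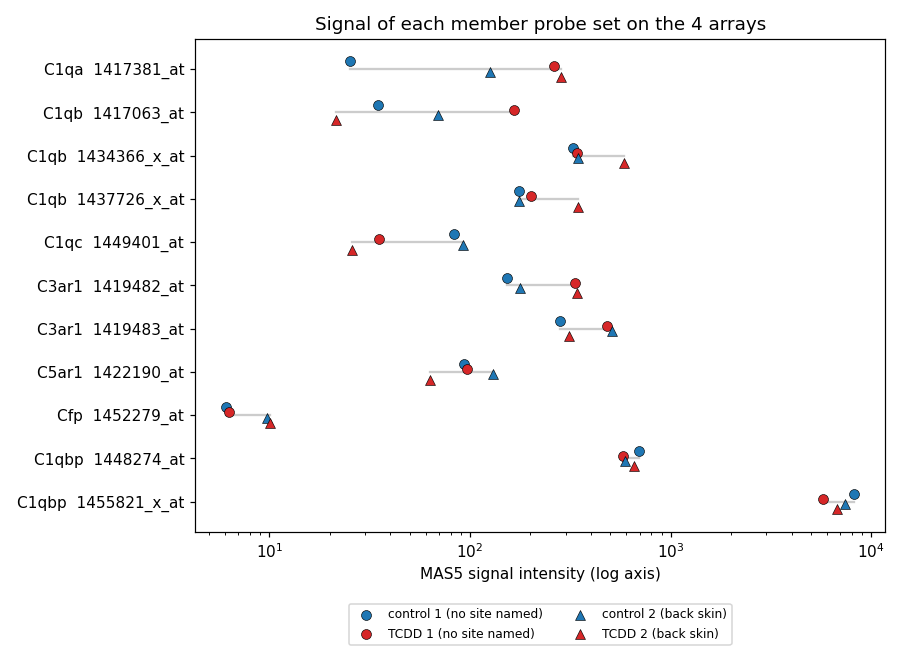
MAS5 signal intensity (log axis) of the 11 probe sets on each of the 4 arrays; blue marks controls, red TCDD, circles samples with no site named and triangles back skin, and the grey line joins the lowest and highest reading. C1qa lies at 260.9 and 284.3 on the TCDD arrays and 25.2 and 126 on the controls, and C1qc lies the other way round.

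The C3a receptor gene had a probe set with close agreement within each group. By probe set 1419482_at, C3ar1 had 152.5 in the control and 334.3 after TCDD with no site named, and 176.9 in the control and 340.7 after TCDD in back skin. The TCDD readings differed by a log2 SD of 0.02 and those of the controls by 0.15, and the groups did not overlap. TCDD to control was 1.93-fold in back skin and 2.19-fold with no site named, a log2 difference of 1.04 ± 0.36 (SE, n = 2 per group). It lay between 0.93 and 1.15 with any 1 array left out, including control 1 (0.93) and control 2 (1.15).

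The other probe set of the same gene did not show this. C3ar1 by 1419483_at had 281.8 in the control and 479.6 after TCDD with no site named, and 511.8 in the control and 311.7 after TCDD in back skin. The highest reading was a control and the groups overlapped. Its log2 ratios were -0.72 in back skin and 0.77 with no site named, a difference of 0.03 ± 0.42 (SE, n = 2 per group). Without control 1 it was -0.40, without TCDD 1 -0.28, without control 2 0.46 and without TCDD 2 0.34. Both probe sets are annotated with the same transcript accession, and which of them follows the gene was not tested.

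C5ar1, the C5a receptor, had 93.4 in the control and 96.2 after TCDD with no site named, and 130.4 in the control and 63.3 after TCDD in back skin (1422190_at). The groups overlapped, with both extremes in back skin. The log2 ratio was -1.04 in back skin and 0.04 with no site named, a mean of -0.50 ± 0.59 (SE of the fit with no filter, n = 2 per group). Without control 1 this was -0.74, without control 2 -0.26, without TCDD 1 -0.80 and without TCDD 2 -0.20. The probe set lay below the expression filter.

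Cfp, which encodes properdin, gave readings at the bottom of every array: 6.1 in the control and 6.3 after TCDD with no site named, and 9.7 and 10.1 in back skin (1452279_at). These lay between percentiles 2.2 and 5.2 of their arrays. The 2 arrays of a preparation were almost equal. With signals under 32 set to 32, all 4 values are the same. The log2 difference of 0.05 rests on readings below that floor, and it was -0.28 without control 1 and 0.39 without control 2.

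C1qbp, the C1q-binding protein, read far higher by 1455821_x_at than by 1448274_at. The brighter probe set carries the suffix x_at, so some of its probes may also match other sequences. Probe set 1455821_x_at had 8204 in the control and 5755 after TCDD with no site named, and 7361 in the control and 6723 after TCDD in back skin. Both TCDD readings were below both controls, by a log2 difference of -0.32 ± 0.31 (SE, n = 2 per group), about the size of its error. Without control 1 it was -0.24 and without control 2 -0.40. For 1448274_at these were 698.5 and 578, then 592.7 and 659.8. There the groups overlapped and the ratio turned from -0.27 with no site named to 0.15 in back skin. The difference was -0.06, and it was 0.06 without control 1, 0.04 without TCDD 1, -0.18 without control 2 and -0.15 without TCDD 2.

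**Figure D2:**
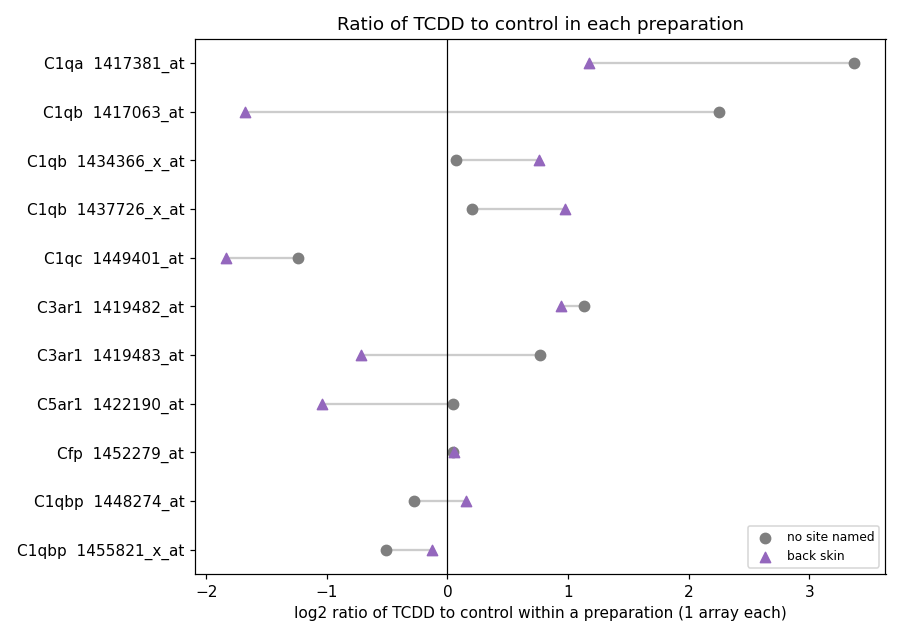
Log2 ratio of TCDD to control for each of the 11 probe sets, with grey circles where no site was named and purple triangles for back skin; each symbol is a ratio of 1 array to 1 array. C1qa and 1419482_at of C3ar1 lie right of 0 in both preparations, C1qc lies left of it in both, and 1417063_at of C1qb spans from -1.68 to 2.25.

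Over all 11 probe sets, 3 read higher on both TCDD arrays than on both controls (C1qa, 1437726_x_at of C1qb and 1419482_at of C3ar1), against 12.8% of all 22626 probe sets. A further 2 read lower with no overlap (C1qc and 1455821_x_at of C1qbp), against 14.9%, and 6 overlapped. Nothing is read from these counts, because C1qa was selected on this contrast. The median log2 difference was 0.05 for the 11 probe sets, which is the value of Cfp, and -0.01 over all probe sets.

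The fit over all arrays, limma with treatment and preparation as terms, was made on the 13576 probe sets with a mean log2 signal of at least 6.85. Of the 11 probe sets, 7 passed this filter, for 4 genes: C1qa, the 2 x_at sets of C1qb, both of C3ar1 and both of C1qbp. C1qa, with a geometric mean signal of 124 against the filter's 115, passed through its TCDD readings. At a Benjamini-Hochberg adjusted p under 0.05, 0 of the 6 other than C1qa were called for TCDD, and 0% of all tested probe sets were. At an unadjusted p under 0.05, 199 of the 13576 probe sets passed, a share below 0.05, so nothing is read from this number. Without control 2, whose labels conflict, or without control 1, only 1 control array remains, so nothing is read from the calls of those fits. When control 2 is left out, the array that remains is control 1, whose RNA quality stood apart. C1qa is left out of the count of called members, because this contrast chose it.

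**Figure D3:**
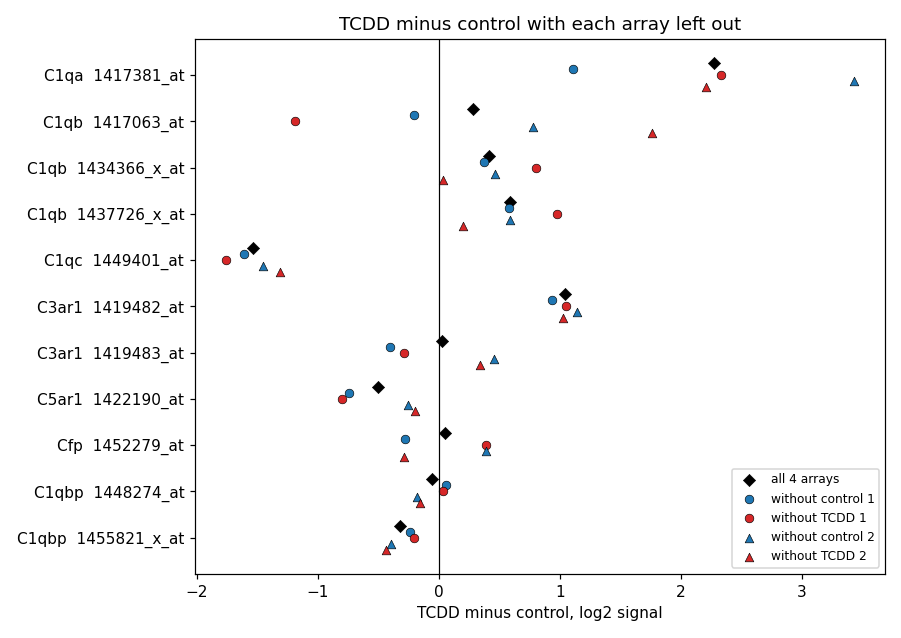
TCDD minus control on the log2 scale for each of the 11 probe sets, over all 4 arrays (black diamonds) and with each array left out (blue for a control, red for a TCDD array; circles for replicate 1, triangles for replicate 2). C1qa moves between 1.11 and 3.43, 1419482_at of C3ar1 between 0.93 and 1.15, and 1417063_at of C1qb from -1.19 to 1.76.

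Back skin was then compared with the preparation that names no site, a contrast on which the choice of genes did not rest. It called 0 of the 7 tested probe sets and 0% of the 13576 (limma, smallest adjusted p 0.9994), with 274 at an unadjusted p under 0.05. C1qa had the largest difference of the 7, at 1.22 ± 0.59 log2 units higher in back skin (SE, n = 2 per preparation). C1qa entered this comparison through its TCDD readings, since its controls had a mean of 5.82 log2 units, below the filter's 6.85. No p-value is therefore given for C1qa here. Its difference between the preparations is a description. That difference came from the controls: control 2 was 2.32 log2 units above control 1, and TCDD 2 was 0.12 above TCDD 1. Without control 1 the difference was -0.46. The x_at sets of C1qb differed by 0.43 ± 0.35 and 0.40 ± 0.39, and those of C3ar1 and C1qbp by between -0.02 and 0.12. The median absolute difference was 0.12 for the 7 probe sets that passed the filter, C1qa among them, and 0.23 for all tested ones. None of this shows that the genes were alike in the 2 preparations, since the median standard error was 0.364.

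Other genes of the complement system were examined as a list of 45 components, regulators and receptors. Of these, 33 had a probe set with 1 symbol, 16 passed the filter, and 0 were called for TCDD or for the preparation. By each gene's brightest probe set, 2 read higher on both TCDD arrays and 9 lower on both, against 12% and 15.6% of all 12393 genes. Their median log2 difference was -0.15, and that of all genes was -0.03.

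Values are given for the 10 brightest of these genes, regulators and receptors first. Calr, which encodes calreticulin, a chaperone that also binds C1q, had 979.6 in the control and 2059 after TCDD with no site named, and 1856 and 1583 in back skin. Control 1 was the low array. It was also the lowest for Lrp1, an endocytic receptor, with 381.2 and 609.5, then 517.5 and 486.7. Cr1l, which encodes the complement regulator Crry, read between 907.8 and 1139, and its groups overlapped. The complement receptor chain Itgb2 read between 366.4 and 456.8 with overlap. Cd59a, an inhibitor of the membrane attack complex, gave 319.8 and 348.5 for the controls against 400.5 and 392 for TCDD, a log2 difference of 0.25 ± 0.34 (SE, n = 2 per group). Clu, which encodes clusterin, gave 1162 and 904.2 for the controls against 660 and 814.4 for TCDD (-0.48 ± 0.36). Serping1, the inhibitor of the proteases that C1q activates, read between 276.4 and 368.4 with overlap, and Cd46, a cofactor for the cleavage of C3b, between 243.3 and 305.1.

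Of the components, Hc, which encodes C5, gave 405.7 and 400.7 for the controls against 366.6 and 322.2 for TCDD (-0.23 ± 0.34). Masp1, a protease of the lectin pathway, gave 390.3 and 352.4 for the controls against 322.3 and 349.4 for TCDD (-0.14 ± 0.34). Both differences were smaller than their errors. Of the receptor chains that pair with Itgb2, Itgax, the CD11c chain, gave 185.4 and 230.7 for the controls against 169.6 and 115.3 for TCDD. Itgam, the CD11b chain, had low readings, 37.1 and 20.8 against 8.9 and 15.3. Cd93, a surface molecule first described as a C1q receptor, gave 83.9 and 173.9 against 62.1 and 58.1. TCDD readings lay below the controls for each of these 3. Cr2, a receptor for fragments of C3, was higher on both TCDD arrays (154 and 166) than in the controls (109.9 and 123.1), a log2 difference of 0.46 ± 0.44 (SE, n = 2 per group). The remaining genes with no overlap read lower on both TCDD arrays. They were Cfi, the protease that cleaves C3b, with 286.9 and 333.8 for the controls against 270.4 and 216.3, Mbl1, a mannose-binding lectin, with 152.3 and 87.7 against 45.1 and 75.5, and C4bp, with 27.4 and 42.5 against 4.7 and 11.7. Itgax, Itgam, Cd93, Cr2, Cfi, Mbl1 and C4bp were named after their values were seen.

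**Figure D4:**
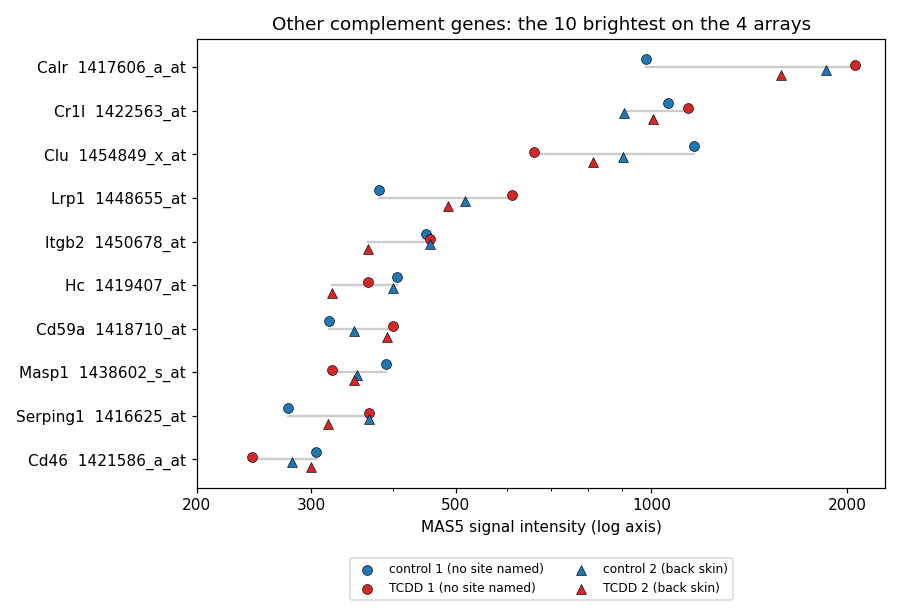
MAS5 signal intensity (log axis) of the 10 brightest other complement genes on each array, with colours and shapes for treatment and preparation. Calr and Lrp1 are lowest on control 1, Clu is higher in both controls, and Cd59a is higher on both TCDD arrays.

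Because macrophages make C1q, macrophage markers are given beside these readings. Of 19 markers fixed, 17 were measured. Of these, 2 read higher on both TCDD arrays and 3 lower on both, against 12% and 15.6% of all 12393 genes, and 12 overlapped. Over all genes the median log2 difference was -0.03, and over the 17 markers it was -0.14. Their signals summed to 2141 and 2150 for the controls and to 2459 and 2028 for TCDD, so the groups overlapped. Cd163, a scavenger receptor of macrophages, had 10.4 in the control and 60.3 after TCDD with no site named, and 76.6 and 19.9 in back skin. Mrc1, the mannose receptor, was higher on both TCDD arrays (197.5 and 182.2) than in the controls (146.3 and 106.9). So was the chemokine Ccl8, with 529.6 and 396.1 against 382.7 and 331.2. Cd209f, Pf4 and Selenop, the brightest macrophage markers beside Ccl8, overlapped, with log2 differences of -0.14, 0.22 and -0.09. The markers lower on both TCDD arrays were Mertk, a receptor for the uptake of dying cells (143.6 and 140.6 in the controls against 119.2 and 122.6), Clec10a, a lectin (28.9 and 31.4 against 22.1 and 20.8), and the scavenger receptor Stab1 (23.5 and 22.5 against 16.3 and 12.3). Cd163, Mrc1, Mertk, Clec10a and Stab1 were named after their values were seen. Of the 17, between 4 and 7 per array lay below that array's 20th percentile. Their part in the C1qa readings was not tested. Of 8 measured monocyte and neutrophil markers, 0 separated the groups, with summed signals between 1149 and 1479. The 6 measured T cell markers summed to 603 in the control and 1072 after TCDD with no site named, and to 1760 and 578.6 in back skin. As with 1417063_at of C1qb and 1419483_at of C3ar1, TCDD was above control with no site named and below it in back skin. Langerin (Cd207) also had this order. It was not particular to them: C5ar1, Calr, Lrp1, Cd163, H2-Eb1 and the fibroblast marker Col1a2 had it too. The share of all probe sets with this order was not counted. The part of T cells or Langerhans cells in the readings was not tested. Of the T cell list and the remaining lists, 0 of 7 keratinocyte, 1 of 6 T cell, 1 of 6 fibroblast and 1 of 5 dendritic cell markers separated the groups. So did 1 of 4 endothelial and 4 of 4 melanocyte markers. Those that separated were all lower after TCDD except Dct of the melanocytes. Over all genes, 12% read higher and 15.6% lower with no overlap, and nothing is read from the counts of these marker lists. Of 10 Langerhans cell markers, Csf1r and Epcam read lower on both TCDD arrays and 8 overlapped. No marker of these lists was called.

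The probe sets most like C1qa over the 4 arrays were sought among 12410 tested ones of other genes, by the distance between log2 profiles centred on their mean. The nearest was Pdk1, a kinase that inhibits pyruvate dehydrogenase, at a distance of 0.60 log2 units, with 114.8 and 542.3 for the controls against 706.4 and 957.2 for TCDD. Cemip2 followed at 0.64, Mif, a cytokine, at 0.73, Hopx at 0.87 and Med25, a Mediator subunit, at 0.89, where the median probe set lay at 2.84. All 5 were lowest on control 1, as C1qa was, and a search for like profiles selects for this. Hopx and Med25 overlapped between the groups, where C1qa did not. With 4 arrays, such a likeness describes 4 values only.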

How the data were processed

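Each of the 4 columns holds MAS5 signal intensities as the authors deposited them, on a linear scale and 1 for each probe set. The submitters' processing notes name the programs affy and MAS5, and versions, background settings and detection calls are not given in the sources used. Every deposited column has a mean of 500 once the lowest and highest 2% of probe sets are removed.

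Members were the probe sets with exactly 1 member symbol. Through gene IDs, 20351 of 20380 single symbols matched RefSeq. The members and gene lists were chosen with earlier results of these data known. Other genes were represented by their brightest probe set, and those named were the brightest of each list unless said otherwise. For Langerhans cells all 10 markers were named. The log2 of the signals was used without another normalization. Of 22626 non-control probe sets, the 13576 at or above the 40th percentile of the mean were fitted with limma 3.58.1 (R 4.3.3). Treatment and preparation were additive terms, which leaves 1 residual degree of freedom, with a variance trend and Benjamini-Hochberg adjustment. The number of arrays limits the precision. No label says that the arrays come from separate animals, so the p-values cover only the spread between these arrays, and that may be technical. Fits with an array left out keep only the term compared and assume that a lone array varies like the others. Percentiles place a signal among the probe sets of its own array. Alternatives were other normalizations, filters, treatment of low signals, variance models and terms.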

Additional observations from a re-analysis of the deposited data

Results flagged for a closer look

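For 4 of the 11 probe sets, TCDD and control lay in opposite orders in the 2 preparations. The share of all probe sets with opposite orders was not counted, so nothing is read from this number. Each preparation holds 1 array per group, so the difference was not tested. The log2 ratio of TCDD to control in back skin minus that with no site named was -3.94 for 1417063_at of C1qb, -1.48 for 1419483_at of C3ar1, -1.09 for C5ar1 and 0.43 for 1448274_at of C1qbp.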

How the results depend on the processing

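The number of probe sets called for TCDD was 0 under every alternative that kept all 4 arrays (quantile normalization, median centring, no filter, a filter at the 60th percentile, a floor or an offset of 32, no variance trend, no preparation block, 1 probe set per gene) and between 0 and 285 with an array left out, 285 of them without control 2. For the preparation it was 0 under the same alternatives and between 0 and 89 with an array left out, 89 without TCDD 1. Nothing is read from the counts with an array left out, because 1 side of the comparison then holds 1 array. Without control 2 that array is control 1, whose RNA quality stood apart. At an unadjusted p under 0.05, 199 probe sets passed for TCDD and 274 for the preparation. Without a filter, which tests more probe sets, the numbers were 514 and 621. They were 96 and 167 with the stricter filter, which tests fewer. The log2 difference of C1qa for TCDD lay between 1.68 with the offset and 2.29 with the arrays kept, and between 1.11 and 3.43 with one left out. Its positive sign is no check, because C1qa was chosen for reading higher on both TCDD arrays than on both controls. Leaving out an array, the floor and the offset cannot turn that sign. With all arrays kept, the TCDD differences of the other 10 probe sets kept their sign, except that Cfp was 0 with the floor. With an array left out, those of 1417063_at of C1qb, 1419483_at of C3ar1, Cfp and 1448274_at of C1qbp changed sign. For the preparation, the difference of 1455821_x_at of C1qbp, 0.03, turned to -0.016 under quantile normalization and -0.029 under median centring. With an array left out it lay between -0.22 and 0.29, and the differences that changed sign lay between -0.46 and 2.91 for C1qa, -0.090 and 0.88 for 1437726_x_at of C1qb, -0.45 and 0.69 for 1419482_at and -0.26 and 0.50 for 1419483_at of C3ar1, -0.16 and 0.11 for 1448274_at of C1qbp, -2.11 and 0.15 for 1417063_at of C1qb, -1.06 and 0.77 for C1qc, which was 0.0049 with the floor against -0.15, and -0.58 and 0.46 for C5ar1. The cause was not tested. At low signals the values are inexact: C1qa on control 1, C1qc, 1417063_at of C1qb and Cfp lie near or below the 20th percentile of an array.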
